A study of Homo sapiens with 12 samples.

Results

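The Toll-like receptor genes TLR1 to TLR8, together with UNC93B1 and CD180, were examined in THP-1 macrophages given a miR-122-5p mimic or a control mimic. They were the rows of the deposited count table whose Ensembl identifiers carry these 10 symbols in GENCODE 29, 10 of 58735 rows in all. THP-1 is a human monocytic leukaemia line, here in its macrophage form. A total of 6 libraries came from cells transfected with 30 nM of a synthetic miR-122-5p mimic and 6 from cells transfected with 30 nM of a control miRNA mimic, both with RNAimax for 24 h. After a rest, all cells received lipopolysaccharide (LPS) for 4 h, so every library is LPS-stimulated and no unstimulated or untransfected group was analysed here. The labels do not say whether the 6 libraries of a group came from separate cultures. The p-values therefore rest on library-to-library spread alone, and that spread may be technical.

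Toll-like receptors recognise microbial molecules through a leucine-rich ectodomain and signal through a cytoplasmic TIR domain that recruits adaptors such as MYD88. At the cell surface, TLR4 with its co-receptor MD-2 senses LPS, TLR2 paired with TLR1 or TLR6 senses bacterial lipopeptides, and TLR5 senses flagellin. TLR3, TLR7 and TLR8 sense double- or single-stranded RNA in endosomes, and the chaperone UNC93B1 carries them there. CD180, also called RP105, is a TLR4 relative without a TIR domain, paired with MD-1 and known to restrain TLR4 in myeloid cells.

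Total counts ran from 29473750 to 35684464 with miR-122-5p and from 31019890 to 39468157 in controls. Values are CPM, read counts relative to library size, scaled by TMM library factors. Fold changes are log2, miR-122-5p over control mimic, from edgeR's quasi-likelihood test; p-values were adjusted by Benjamini-Hochberg over 15471 tested genes, and a gene was called at an adjusted p under 0.05. Fold changes over all genes followed transcript GC content. With tested genes split into 5 GC classes of about 3093 each, the median was -0.30 in the class with 26.8 to 41.3% GC and 0.39 in that with 58.4 to 84.3%. For each library, log2 CPM relative to each gene's mean over the 12 libraries was set against GC content. This GC slope ran from 0.03 to 0.23 log2 per 10 percentage points in the miR-122-5p libraries, against -0.32 to 0.01 in controls, without overlap. Centring on that mean makes the group means opposite (0.146 with miR-122-5p, -0.146 in controls). Their difference thus restates the GC trend of the fold changes. Each member is therefore also given after a correction for transcript GC content and length, and with the GC slope as a covariate, where either ends or adds a call, turns the direction or moves the value by over 1.5 times. Control libraries 1 and 6 lay apart from the other controls on the third and second principal components. Macrophage markers were present: 8 of 10 averaged over 1 CPM in controls and their sum was 2460 to 2990 CPM in the miR-122-5p libraries, against 2430 to 2790 in controls. The sum hides opposite changes: CD14, CSF1R and FCER1G were called lower with miR-122-5p, and ITGAM, TYROBP and MARCO higher. CD68 averaged only 0.239 and 0.216 CPM; other annotated genes overlap 85.8% of its exons, whose part in this value was not tested. CD3D, CD3E, CD2, CLEC4C and EPCAM had 0 counts in all 12 libraries. Summed T cell markers were 19.9 to 28.9 CPM with miR-122-5p against 19.2 to 23.9 in controls, almost all TRAC. B cell markers were 3.6 to 5.66 against 2.68 to 5.02, NK cell markers 0.291 to 0.504 against 0 to 0.486 and epithelial markers 0.0837 to 0.738 against 0.116 to 1.06. Hepatocyte markers were 11.2 to 13.9 against 6.45 to 8.63, nearly all APOA1.

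Of the 10 genes, 8 passed the low-count filter, and 5 of those were called lower with miR-122-5p (TLR1, TLR2, TLR3, TLR4 and UNC93B1), 1 higher (CD180) and 2 not called (TLR6 and TLR7). Over all tested genes 50.4% were called, 26.2% lower and 24.2% higher. By GC class, 46.5% were called lower and 6.56% higher in that of TLR1, TLR2, TLR3, TLR4 and TLR7 (26.8 to 41.3% GC). The class of TLR6 and CD180 had 34.7% lower and 11.7% higher, and that of UNC93B1 7.79% and 50.7%. For TLR2, TLR3, TLR4 and UNC93B1 the 6 values of one group lay wholly below the 6 of the other, as for 16.1% of all tested genes; for 0 of the 8 they lay wholly above, against 13.4%. TLR5 and TLR8 were too low to be tested. TLR3 passed the filter only through the control libraries, so it had to be lower to be tested at all. In bulk RNA, a loss of cells expressing a receptor and less RNA in each cell cannot be told apart.

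**Figure D1:**
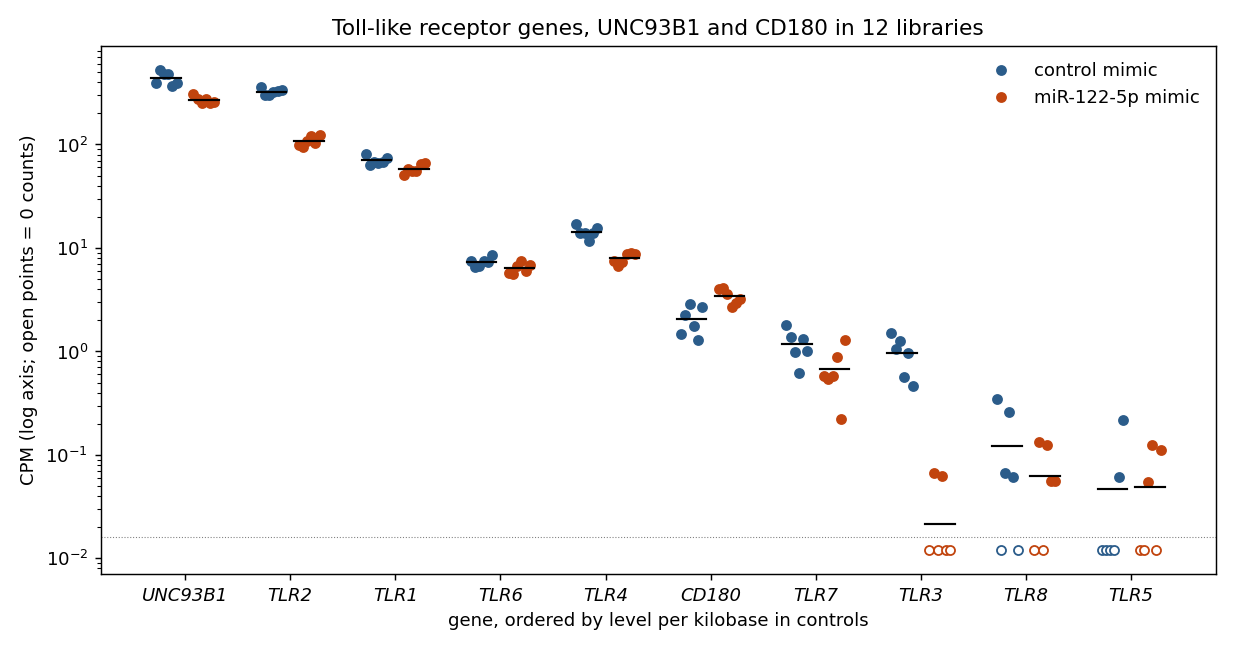
CPM of each gene on a log axis, 1 point per library, blue for the control mimic and orange for miR-122-5p, with the mean of 6 libraries as a bar; open points below the dotted line are libraries with 0 counts. TLR2, TLR4, TLR3 and UNC93B1 separate completely between groups, CD180 is higher with miR-122-5p with some overlap, and TLR5 and TLR8 stay near 0 in both groups.

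The mature miR-122-5p is shown with its seed, bases 2 to 8, in capitals, since the longest annotated 3′ UTRs of the 10 genes were searched for matches to it; below it are the best matches found, in capitals with their flanks (GENCODE 29 transcripts, hg38; the microRNA sequence is from RefSeq, GRCh38.p14).
miR-122-5p: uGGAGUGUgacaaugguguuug
TLR4, 7mer-m8: agaaaatatttACACTCCcatgttcattg
TLR3, 7mer-A1: tgtaatctgtcCACTCCAacttcttcctg
TLR6, 7mer-A1: gcctggcatccCACTCCAagactgaaagc

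The TLR4 site lies in its 3′ UTR on chromosome 9 (117716251 to 117716257), the TLR3 site on chromosome 4 (186087523 to 186087529) and the TLR6 site on chromosome 4 (38826120 to 38826126). A 7mer-m8 pairs with seed bases 2 to 8, and a 7mer-A1 with bases 2 to 7 followed by an A. TLR4 held a 6mer at 2 further places, and the other 7 genes held no match. Over the tested genes, 5.22% had a 7mer-m8 and 13.3% a 7mer-A1 as their strongest site, 2.92% an 8mer and 50.1% none. Called lower were 31.9% of genes with a 7mer-m8, 30.7% with a 7mer-A1 and 28.7% with no site. Of the 3 genes with a site, TLR3 and TLR4 were called lower and TLR6 was not called. Of the 5 tested genes without one, TLR1, TLR2 and UNC93B1 were called lower, CD180 higher and TLR7 was not called.

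TLR2, the lipopeptide receptor (ENSG00000137462, chromosome 4, 153684070 to 153705702, plus strand, hg38), was the most abundant receptor gene and fell about 3-fold. Control libraries had a lowest value of 297.9, a median of 323.5 and a highest of 362.5 CPM. With miR-122-5p the lowest was 95.6, the median 105.5 and the highest 122.5 CPM. Every miR-122-5p library thus lay far below every control library. The log2 fold change was -1.58 ± 0.08 (SE, n = 6 in each group; edgeR adjusted p = 3.21e-14), and 2.12% of tested genes fell further. After the GC and length correction it was -1.28.

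Of the co-receptors of TLR2, TLR1 was called slightly lower and TLR6 was not called. TLR1 (ENSG00000174125, chromosome 4, 38790677 to 38856817, minus strand) had a lowest value of 63.9, a median of 67.8 and a highest of 81.2 CPM in controls. With miR-122-5p these were 51.1, 56.6 and 66.2 CPM, so the highest miR-122-5p values overlapped the lowest control values. It was called lower (-0.27 ± 0.08, n = 6 in each group, edgeR adjusted p = 0.00639), a change close to the median of -0.30 in its GC class. The call ended and the sign turned once GC content and length were corrected for (0.04; edgeR adjusted p = 0.664) and with the GC slope covariate (0.04, adjusted p = 0.840). Without control libraries 1 and 6 it was smaller but still called (-0.19, adjusted p = 0.0468).

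TLR6 (ENSG00000174130, chromosome 4, 38823715 to 38856817, minus strand), whose annotated span lies within that of TLR1, ran from 6.61 to 8.53 CPM in controls, with a median of 7.38. With miR-122-5p it ran from 5.58 to 7.43 CPM, with a median of 6.38, and the groups overlapped. It was not called (-0.20 ± 0.12, n = 6 in each group, edgeR adjusted p = 0.156; 95% interval -0.43 to 0.03). The sign turned with the GC and length correction (0.03) and the GC slope covariate (0.04). TLR1 and TLR6 share annotated first exons, which is 1.3% of TLR1's exonic length, and 3.14% of the 75-base stretches of TLR1 transcripts also occur in TLR6. Reads there cannot be assigned to either gene.

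TLR4, the LPS receptor chain (ENSG00000136869, chromosome 9, 117704175 to 117724730, plus strand), was lower in every miR-122-5p library. In controls its lowest, median and highest values were 11.68, 13.96 and 17.13 CPM. With miR-122-5p they were 6.69, 8.05 and 8.87 CPM, with a clear gap between the groups. The log2 fold change was -0.85 ± 0.11 (n = 6 in each group, edgeR adjusted p = 7.66e-07), and the median in its GC class was -0.30. With GC content and length corrected for it was -0.52 (adjusted p = 5.12e-05) and -0.50 with the GC slope covariate (adjusted p = 0.0456), called in both. AL160272.2 overlaps 4.2% of the exonic length of TLR4 on the same strand.

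CD180, the TLR4 relative that lacks a TIR domain (ENSG00000134061, chromosome 5, 67179613 to 67196799, minus strand), was the one gene called higher. Control libraries had a lowest value of 1.28, a median of 2.00 and a highest of 2.86 CPM. With miR-122-5p the lowest was 2.71, the median 3.38 and the highest 4.14 CPM. A single miR-122-5p library, number 4, lay within the control range, and the other 5 lay above it. The log2 fold change was 0.74 ± 0.21 (n = 6 in each group, edgeR adjusted p = 0.00410), while the median in its GC class was -0.16. With GC content and length corrected for it was 0.93 (adjusted p = 0.000591). With the GC slope covariate it was 0.20 and no longer called (adjusted p = 0.783).

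TLR5, the flagellin receptor, was at the limit of detection. Control libraries 1 to 4 had 0 counts, library 5 had 2 and library 6 had 8; with miR-122-5p the libraries had 0, 0, 2, 4, 0 and 4 counts. Both groups summed to 10 counts, and no difference was detectable at this depth. TLR5 (ENSG00000187554) lies on chromosome 1 (223109406 to 223143282, minus strand).

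Among the endosomal RNA sensors, TLR3 showed the largest change of the 10 genes. Control libraries 1 to 6 held 52, 34, 38, 22, 32 and 17 counts of TLR3, the receptor for double-stranded RNA (ENSG00000164342, chromosome 4, 186069152 to 186088069, plus strand). The miR-122-5p libraries held 0, 2, 0, 2, 0 and 0 counts. TLR3 was therefore present at low level in every control library and at 0 in 4 of 6 miR-122-5p libraries. Summed over libraries, 195 control counts stood against 4, a ratio of 48.5 with a 95% counting interval of 13.1 to 408 when each read pair is taken as 2 counts. The interval covers counting error only. The fitted log2 fold change was -5.37 ± 0.66 (n = 6 in each group, edgeR adjusted p = 3.41e-07), which depends on the prior count at such values. It ran from -5.99 to -5.04 over all alternatives in which TLR3 was tested. In fits with the low-count filter its direction was fixed, because it passed only through the control libraries. The p-value and this range are therefore no separate support for its fall. With counts divided by 2, to take each read pair once, it failed the filter and was not tested.

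TLR7 (ENSG00000196664) and TLR8 (ENSG00000101916), neighbours on the X chromosome (12867083 to 12890380 and 12906620 to 12923169, plus strand), sense single-stranded RNA. TLR7 had a lowest value of 0.620, a median of 1.16 and a highest of 1.79 CPM in controls. With miR-122-5p these were 0.223, 0.578 and 1.30 CPM. Of the 6 miR-122-5p libraries, 4 lay below all controls and libraries 4 and 6 lay among them. TLR7 was not called (-0.79 ± 0.36, n = 6 in each group, edgeR adjusted p = 0.0690; 95% interval -1.49 to -0.09). It was called without miR-122-5p library 6 (-1.07, adjusted p = 0.0189) and without control library 4 (-0.92, adjusted p = 0.0399), and it was -0.52 with GC content and length corrected for (adjusted p = 0.229) and 0.02 with the GC slope covariate (adjusted p = 0.989). The summed markers of plasmacytoid dendritic cells, known for high TLR7, were lower (18.2 to 22.3 CPM with miR-122-5p, 53.6 to 70.5 in controls). Almost all of this sum was IL3RA: of the 3 markers only IL3RA averaged over 1 CPM, and CLEC4C was at 0. Every library is labelled as the THP-1 line, so the sum is a change of IL3RA and not a measure of such cells. Whether IL3RA and TLR7 changed together was not tested. TLR8 held 12, 0, 2, 10, 2 and 0 counts in control libraries 1 to 6. With miR-122-5p it held 0, 4, 0, 4, 2 and 2 counts. The summed ratio of control to miR-122-5p was 2.16 with a 95% counting interval of 0.764 to 6.91, so no difference of TLR8 was detectable at this depth.

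UNC93B1, the chaperone of the endosomal receptors (ENSG00000110057, chromosome 11, 67991104 to 68004982, minus strand), was the most abundant of the 10 genes and fell. Its lowest, median and highest control values were 368.8, 435.5 and 525.3 CPM. With miR-122-5p they were 249.3, 268.5 and 307.0 CPM, all below the controls. The log2 fold change was -0.70 ± 0.08 (n = 6 in each group, edgeR adjusted p = 2.04e-07). UNC93B1 has a GC content of 65.5%, and in that GC class the median was 0.39, with 50.7% of genes called higher and 7.79% lower. The fall was larger with GC content and length corrected for (-1.19, adjusted p = 2.22e-15) and with the GC slope covariate (-1.11, adjusted p = 3.45e-09). Of the 75-base stretches in its transcripts, 5.52% also occur in related loci such as UNC93B7, UNC93B8 and UNC93B3, so a part of its reads is uncertain.

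**Figure D2:**
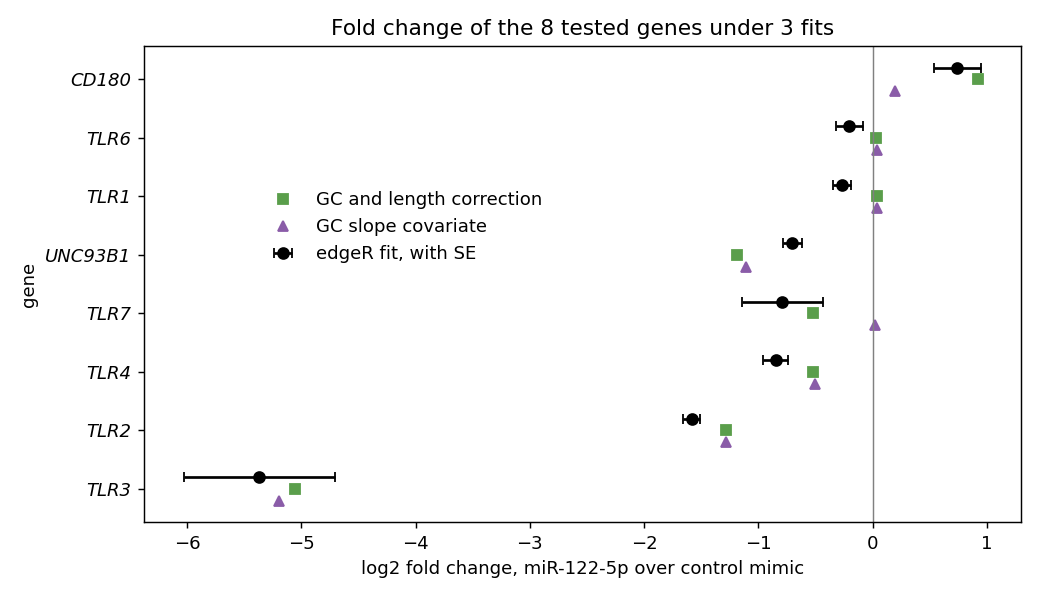
Log2 fold change (x axis) of the 8 tested genes, with the standard error for the edgeR fit (black), after the GC and length correction (green) and with the GC slope covariate (purple). TLR3, TLR2, TLR4 and UNC93B1 stay below 0 in all 3, TLR1 and TLR6 move to just above 0, and CD180 stays above 0 but falls to 0.20 with the covariate.

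Set against transcript GC content, the members differed in how far they stood from genes of like composition. TLR1 (39.2% GC) and TLR6 (42.8%) lay at -0.27 and -0.20, beside class medians of -0.30 and -0.16. TLR2 (39.3%), TLR3 (37.6%), TLR4 (39.3%) and TLR7 (40.8%, not called) lay further below a class median of -0.30. UNC93B1 and CD180 lay on the other side of 0 from their class medians. These are descriptions, with no test of the distance.

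**Figure D3:**
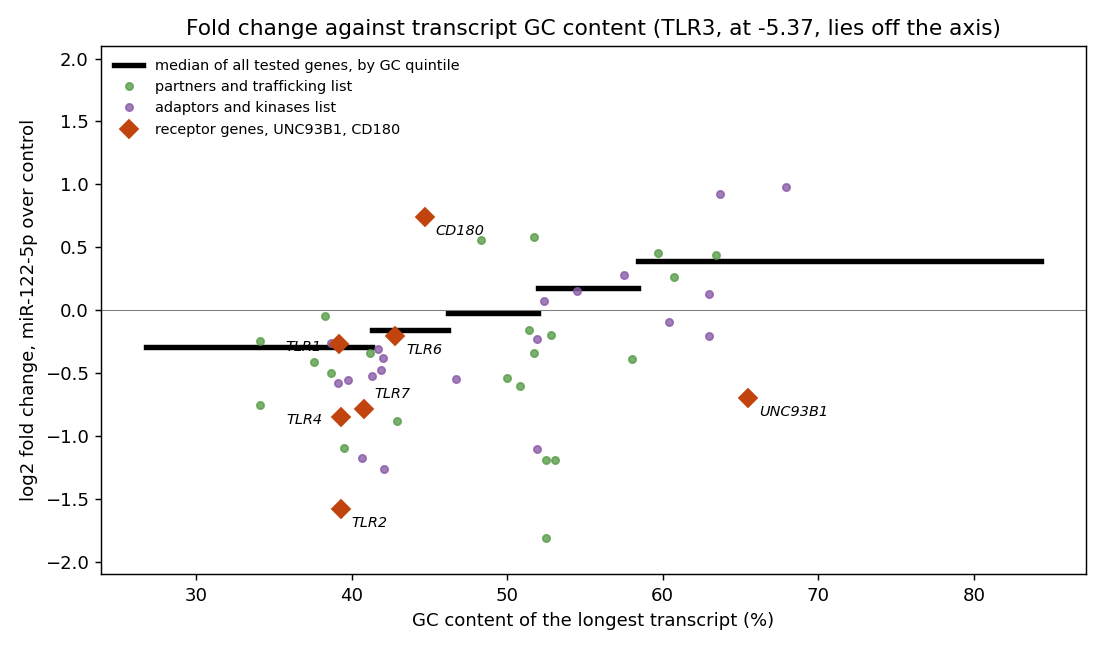
Log2 fold change (y axis) against GC content of the longest transcript in % (x axis) for 7 of the 8 tested genes (red diamonds) and the 2 pathway lists (green and purple points); black lines are medians of all tested genes in 5 GC classes. TLR1 and TLR6 sit near the black lines, TLR2 and TLR4 below, UNC93B1 at -0.70 under a median of 0.39, and CD180 at 0.74 above a median of -0.16.

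Per kilobase of exon (RPKM), the order of levels in controls was UNC93B1 (123.9), TLR2 (62.1), TLR1 (15.5), TLR6 (1.22), TLR4 (1.08), CD180 (0.362), TLR7 (0.227), TLR3 (0.145), TLR8 (0.0281) and TLR5 (0.00600). The ranges over control libraries overlapped between TLR6 and TLR4 and between each pair of neighbours from CD180 down, and not between the other neighbours. With miR-122-5p, TLR2 was at 20.7 RPKM and TLR1 at 12.9, so the first was still above the second in every library. CD180 (0.605) and TLR4 (0.600) were at one level with miR-122-5p, with overlapping ranges, and TLR3 moved to the end of the order (0.00323). TLR4 has a long annotated 3′ UTR of 10082 bases, and its level per kilobase would be higher if the cells use a shorter one.

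For 3 pairs of related genes, the log2 ratio in each library was compared between groups to ask whether they changed unequally. The ratio of TLR4 to CD180 was 2.82 ± 0.50 (SD, n = 6) in controls and 1.21 ± 0.40 with miR-122-5p. Control libraries ran from 2.25 to 3.49 and miR-122-5p libraries from 0.69 to 1.66, without overlap. The difference was -1.61 (two-sided exact permutation test, p = 0.00216, which is the lower limit with 6 libraries a group; 0.00649 adjusted over the 3 pairs), and ran from -1.72 to -1.48 with each library left out in turn. TLR4 and CD180 thus changed unequally, as already given by their opposite calls in the same libraries. The ratio is therefore no separate support, and it does not say how much each changed. The ratio was not run with the GC slope covariate, under which the fold changes of TLR4 and CD180 were -0.50 and 0.20, the second not called. The ratio of TLR1 to TLR6 was 3.24 ± 0.13 in controls and 3.18 ± 0.20 with miR-122-5p (n = 6, exact permutation p = 0.535, adjusted p = 0.535), and the groups overlapped in part. TLR7 to TLR8 was 3.11 ± 1.30 in controls and 2.62 ± 1.00 with miR-122-5p (n = 6, exact permutation p = 0.463, adjusted p = 0.535). TLR8 enters this ratio with at most 12 counts in a library.

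**Figure D4:**
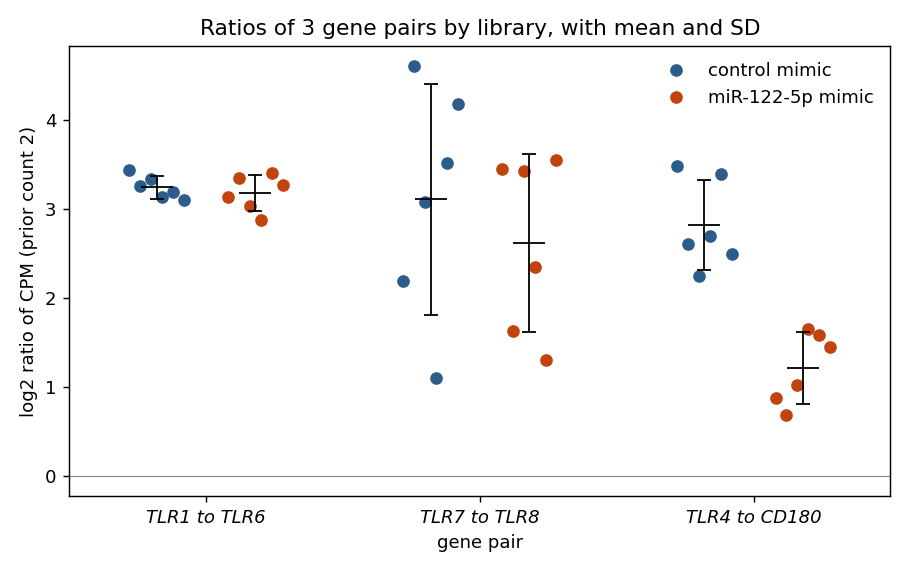
Log2 ratio of CPM (y axis) for 3 gene pairs, 1 point per library, with the mean and SD of 6 libraries in black. The TLR4 to CD180 ratio separates the groups completely (2.25 to 3.49 in controls, 0.69 to 1.66 with miR-122-5p), and the other 2 pairs overlap.

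Promoters (250 bases before to 50 after the start, RefSeq, GRCh38.p14) were found for 7 of the 10 genes: TLR2, TLR3, TLR4, TLR5, TLR6, TLR8 and CD180. They were searched on both strands for AAANNGAAA, a core of the interferon-stimulated response element, for GGGANTTTC, a core of NF-kB sites, and for GAGGAAGT, a core of PU.1 sites, and no match found overlapped another. TLR3 and TLR2 held the first, as did 10.5% of 35116 promoters, and TLR4 held the third, at 2 places; 2.59% of promoters held it at least once. The second occurred in 0 of the 7 and in 1.28% of all promoters. The promoters of TLR3, TLR2 and TLR4 are shown because these 3 receptors fell furthest among those called; capitals mark the matches, which are descriptions and not shown to be bound.
TLR3 (chr4:186068906-186069205, plus strand): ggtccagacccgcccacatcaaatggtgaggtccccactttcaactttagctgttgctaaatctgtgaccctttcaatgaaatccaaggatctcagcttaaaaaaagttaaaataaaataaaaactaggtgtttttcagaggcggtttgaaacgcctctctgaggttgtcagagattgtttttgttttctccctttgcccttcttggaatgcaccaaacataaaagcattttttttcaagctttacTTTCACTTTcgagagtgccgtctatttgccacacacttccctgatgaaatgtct
TLR2 (chr4:153684030-153684329, plus strand): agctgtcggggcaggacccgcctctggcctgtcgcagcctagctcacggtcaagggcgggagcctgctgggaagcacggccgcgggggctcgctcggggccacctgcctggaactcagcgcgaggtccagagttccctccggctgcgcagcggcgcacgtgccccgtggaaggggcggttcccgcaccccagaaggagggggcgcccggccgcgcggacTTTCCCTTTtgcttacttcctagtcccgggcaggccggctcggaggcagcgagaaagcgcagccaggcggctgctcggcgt
TLR4 (chr9:117704153-117704452, plus strand): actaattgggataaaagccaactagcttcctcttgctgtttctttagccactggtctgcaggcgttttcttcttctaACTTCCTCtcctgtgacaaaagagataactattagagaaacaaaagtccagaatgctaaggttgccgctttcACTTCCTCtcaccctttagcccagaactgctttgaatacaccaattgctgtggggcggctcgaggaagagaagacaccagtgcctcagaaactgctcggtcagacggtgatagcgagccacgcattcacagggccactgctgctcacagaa

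The match in the TLR3 promoter starts at position -4 relative to the annotated start and that of TLR2 at -31. The TLR4 matches start at -173 and -101.

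The other receptors TLR9 and TLR10, ligand-binding partners, and genes that fold, carry or process these receptors or their ligands were followed as one list of 24. Of these, 22 were tested, 16 called lower and 4 higher (median log2 fold change -0.37, against 0.01 over all tested genes). Over all tested genes 26.2% were called lower and 24.2% higher. With GC content and length corrected for, 13 of the list were called lower and 3 higher, against 23.5% and 23.3% of all tested genes. MD-1 (LY86), the partner of CD180, was lower (-0.54 ± 0.09, edgeR adjusted p = 2.15e-05). CD180 itself was called higher, but not with the GC slope covariate (0.20). MD-2 (LY96), the LPS-binding partner of TLR4, fell by 0.76 ± 0.10, and CD14, which passes LPS to it, by 0.39 ± 0.09. The ER chaperone HSP90B1, needed for folding most of these receptors, fell by 0.34 ± 0.07, while its co-chaperone CNPY3 rose by 0.46 ± 0.07. The lysosomal proteases LGMN, CTSL and CTSS, known to cleave endosomal receptors into their active form, changed by -1.81 ± 0.08, -1.20 ± 0.06 and -1.09 ± 0.07. LGMN averaged 15.1 ± 0.683 CPM in the miR-122-5p libraries against 52.9 ± 4.33 in controls (SD, n = 6). The nucleases PLD3 and RNASET2, which cut the nucleic acids that endosomal receptors meet, rose by 0.44 ± 0.08 and 0.56 ± 0.10. With the GC slope covariate, 8 genes of this list were called lower and 0 higher, against 12.3% and 7.37% of all tested genes. The calls of CNPY3, PLD3 and RNASET2 thus ended. The lower calls went from 16 to 8, and which genes kept theirs is not given here. CNPY3 (59.7% GC) and PLD3 (63.4%) lay in the GC class with a median of 0.39, and RNASET2 (48.3%) in that with a median of -0.02.

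The remaining receptors TLR9 and TLR10 were near the limit. TLR10 averaged 0.631 ± 0.244 CPM in the miR-122-5p libraries against 0.647 ± 0.408 in controls (n = 6) and was not called (edgeR adjusted p = 0.938). TLR9, at 0.206 ± 0.206 and 0.148 ± 0.124 CPM, was not tested.

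A second list of 22 adaptors and kinases had 20 tested genes, 11 called lower and 3 higher (median -0.29). Over all tested genes 26.2% were called lower and 24.2% higher. With GC content and length corrected for, 10 of the list were called lower and 2 higher, against 23.5% and 23.3% of all tested genes. MYD88, the adaptor of all these receptors but TLR3 and CD180, fell by 1.10 ± 0.07, from 396.6 ± 33.6 to 184.9 ± 14.3 CPM (SD, n = 6). The ubiquitin ligase PELI1 and the kinase IRAK4 changed by -1.17 ± 0.09 and -1.27 ± 0.13. SIGIRR, a negative regulator, PELI3 and TOLLIP rose by 0.98 ± 0.17, 0.93 ± 0.19 and 0.28 ± 0.07. TICAM1, the adaptor through which TLR3 signals, was not called (-0.21 ± 0.11, edgeR adjusted p = 0.136). SIGIRR (67.9% GC) and PELI3 (63.7%) lay in the GC class with a median of 0.39, and TOLLIP (57.5%) in that with a median of 0.17. With the GC slope covariate, 5 genes of this list were called lower and 0 higher, so the calls of SIGIRR, PELI3 and TOLLIP ended. Of all tested genes 12.3% were then called lower and 7.37% higher. The lower calls went from 11 to 5, and which genes kept theirs is not given here.

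By the profile of log2 CPM over the 12 libraries, centred on each gene's mean, PIK3CA, MIA3 and ST8SIA4 were nearest to TLR4 among 8335 genes of at least 3 log2 CPM. Their root mean square distances were 0.0702, 0.0867 and 0.0993 log2 units. Their log2 fold changes were -0.76 ± 0.10, -0.84 ± 0.08 and -0.78 ± 0.10. The group difference is part of the distance, so a fold change like that of TLR4 is built into the choice. Nearest to TLR7 were UBN2, PLXNC1 and SMC6, at the larger distances of 0.406, 0.422 and 0.431. TLR7 held only 8 to 62 counts in a library and was not called, so counting noise enters these distances.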

How the data were processed

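Trizol RNA, 1 µg a sample, went into an NEBNext Ultra RNA kit, per the labels' protocols; how strand was handled in counting is not stated there. The authors deposited raw read counts per gene, 1 column per library, not normalized. HISAT2 2.0.5, featureCounts 1.5.0-p3 and hg38 are named in the submitters' processing notes, without settings. Columns were matched to samples by name and number; nc was taken as the control mimic. Counts of 2 were 2.13 times as frequent as counts of 1, and 20 of 21 nonzero counts of TLR3, TLR5 and TLR8 were even. In genes averaging 1 to 5 counts 69.8% were even, against 49.7% in genes averaging 1000 or more. Both mates of a read pair thus appear to have been counted often but not always. Odd counts occurred in other low genes such as TLR9, so 2 counts a pair is an assumption.

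In R 4.3.3, low genes were removed with filterByExpr, and edgeR 4.0.16 compared both groups (TMM, robust quasi-likelihood test, Benjamini-Hochberg over all tested genes). Log2 CPM used a prior count of 2. Alternatives were DESeq2 1.42.0, limma-voom (limma 3.58.1), other scalings and filters, GC corrections (natural splines with 4 degrees of freedom, or the GC slope as a covariate), the replicate number as a block and each library left out; 2 were added after seeing the data. No 2 libraries of a group agreed within counting noise (chi-square over its degrees of freedom, 7.84 to 72.9). Symbols, positions and UTRs came from GENCODE 29, which held all 58735 identifiers; exons were united per gene for RPKM. The members and gene lists were chosen with earlier results of these data known. The named genes were all 10 members, the 3 called genes of smallest p in each direction of each list, LY86, LY96, CD14, TLR9, TLR10, HSP90B1, CNPY3 and MYD88, and the 3 genes with profiles nearest to TLR4 and TLR7; TICAM1 was chosen after its values were seen.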

Additional observations from a re-analysis of the deposited data

Results flagged for a closer look

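TLR5 in control library 6 stood apart from the other controls, at 0.219 CPM (8 counts) where the other 5 ran from 0 to 0.0608 CPM. The same test was made on 26 groups of 6 values, and chance sets apart about 1 in 20 groups, so 1 such value is not unusual.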

How the results depend on the processing

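TLR2, TLR3, TLR4 and UNC93B1 were called lower under every alternative in which they were tested (24, 22, 24 and 24), with log2 fold changes of -1.62 to -1.28, -5.99 to -5.04, -0.89 to -0.50 and -1.19 to -0.64. TLR3 was not tested at 1 CPM in 6 libraries or with counts divided by 2, nor TLR7 at the first. Where the low-count filter was used, TLR3 passed only through the controls, so its direction was fixed there. CD180 was called in 23 of 24 (0.20 to 0.96). With each library left out, TLR1 ran from -0.30 to -0.22, TLR6 from -0.24 to -0.15 and TLR7 from -1.07 to -0.60. The sign turned with the GC and length correction for TLR1 (0.035), TLR6 (0.027) and the TLR1 to TLR6 ratio (0.004), with the same correction and the replicate block for TLR1 (0.033) and TLR6 (0.027), and with the GC slope covariate for TLR1 (0.043), TLR6 (0.043) and TLR7 (0.019). The covariate, whose values do not overlap between groups, also ended the CD180 call (0.196), leaving 0 members higher, 1909 of all genes lower and 1140 higher (37.4% of calls higher, against 48% without it), 8 and 0 genes of the first pathway list lower and higher, and 5 and 0 of the second; the cause was not tested. Same-numbered libraries did not deviate together (correlations -0.105 to 0.066; 1 of 6 was closest to its own number), so the numbers are not treated as pairs. Under the replicate block the TLR4 to CD180 difference was -1.609 with an adjusted p of 0.0938 by exact sign flips, the smallest this test can give over 3 pairs; it changed no call of a member, and TLR7 was at -0.86. Depth limits TLR3, TLR5, TLR7 and TLR8: a count of 0 allows up to 3 read pairs, or 6 counts where both mates are counted, which is 0.155 to 0.202 CPM in 1 library, for counting error only.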
